A study of Homo sapiens with 6 samples.

Results

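Mitochondrial ribosomal protein genes were taken as all rows of the expression table whose symbol reads MRPL or MRPS, a number and at most one letter A to C. The rule returned 78 of 35268 named genes, of which 49 carried a large subunit symbol (MRPL) and 29 a small subunit symbol (MRPS). The table came from mRNA sequencing of Rh30, an established line of fusion-positive rhabdomyosarcoma (FP-RMS), the childhood muscle-lineage tumor driven by fusions such as PAX3-FOXO1. Cells of this single line received 1 µM YK-4-279 dissolved in DMSO or DMSO alone, for 24 hours in both groups, with 3 libraries per group. YK-4-279 is a small molecule first described as an inhibitor of the EWS-FLI1 fusion and studied here for its effect on PAX3-FOXO1 and the ETS factor ETS1. Nothing in the labels said whether the 3 libraries of a group came from separate cultures, so every p-value measures the spread between libraries, which may be technical.

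The mitochondrial ribosome translates the few mRNAs of mitochondrial DNA, which encode core membrane subunits of the respiratory chain and ATP synthase. All of its proteins are encoded in the nucleus, made in the cytosol and imported. The small subunit binds the mRNA and holds the decoding site, while the large subunit carries the peptidyl transferase center, the exit tunnel and the contact with the inner membrane. Many of the proteins descend from bacterial ribosomal proteins and others occur only in mitochondria.

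The libraries held between 16724650 and 24677433 reads on named genes. MYOD1 (34516 to 39146 normalized counts), MYOG, DES, PAX3, FGFR4 and MYCN, taken as markers of this tumor line, were present throughout. The leukocyte marker PTPRC (0 to 1) and the hepatocyte marker ALB (0 to 7) were at or near 0. PECAM1 lay at 14.1 to 29.0 and EPCAM at 50.1 to 88.3. DMSO replicate 1 stood apart. Its mean correlation with the other libraries was 0.9888, against 0.9923 to 0.9929 for the others. Its levels were also lower for GC-rich transcripts. Over the 75 tested mitoribosomal genes the Spearman coefficient between GC content and its log2 deviation from the mean of the 6 libraries was -0.608. The coefficient was 0.118 to 0.573 in the other 5 libraries. Many values depended on it, and the main ones are also given without it.

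Upstream sequences are shown for 5 mitoribosomal genes on which the results below turn. MRPS9 and MRPS31 had the lowest p-values, MRPL54 had the largest rise in fold change, and MRPL43 and MRPL57 each lay head to head with a gene that passed the test. The sequences end at the base before the RefSeq transcription start (GRCh38.p14), read 5′ to 3′ on the strand of the gene, and capitals mark the ETS core CCGGAAG on either strand. They cover chr2:105037919-105038068 (plus strand), chr13:40771191-40771340 (minus), chr19:3762532-3762681 (plus), chr10:100987498-100987597 (minus) and chr13:21176558-21176657 (plus), in the order printed.
MRPS9: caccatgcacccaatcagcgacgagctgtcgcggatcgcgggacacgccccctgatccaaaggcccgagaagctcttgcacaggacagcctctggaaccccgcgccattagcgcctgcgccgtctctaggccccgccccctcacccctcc
MRPS31: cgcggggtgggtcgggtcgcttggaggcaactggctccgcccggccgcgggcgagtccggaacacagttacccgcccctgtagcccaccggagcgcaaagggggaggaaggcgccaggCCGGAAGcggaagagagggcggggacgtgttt
MRPL54: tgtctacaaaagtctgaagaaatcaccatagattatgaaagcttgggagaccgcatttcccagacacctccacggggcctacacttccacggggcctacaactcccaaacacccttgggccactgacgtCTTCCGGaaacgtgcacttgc
MRPL43: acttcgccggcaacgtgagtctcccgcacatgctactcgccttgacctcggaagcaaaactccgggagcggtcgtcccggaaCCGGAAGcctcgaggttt
MRPL57: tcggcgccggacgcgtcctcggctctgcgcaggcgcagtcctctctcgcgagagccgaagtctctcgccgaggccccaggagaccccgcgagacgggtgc

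The ETS core began 32 bases before the start of MRPS31, 21 before that of MRPL54 and 18 before that of MRPL43. The printed stretches of MRPS9 and MRPL57 did not hold these letters. RefSeq promoters, from 250 bases before to 50 after the start, were at hand for 69 of the 78 genes. CCGGAAG occurred on either strand in 29 of the 69, or 42.0%, against 19.0% of the promoters of 10946 tested genes. AAGATGGCG, a YY1 core, occurred in 13 (18.8% against 3.84%), and GCATGCGC, an NRF1 core, in 6 (8.70% against 5.49%). None of the 3 motifs is part of another, and a match describes letters rather than a bound site.

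Levels of the mitoribosomal genes differed widely within the DMSO group. Dividing the normalized count by the length of the canonical transcript gave a median of 538.7 normalized counts per kilobase in DMSO over the 75 tested genes. Among large subunit genes MRPL20, MRPL37 and MRPL51 were highest, at 1823, 1753 and 1514 per kilobase in DMSO. Among small subunit genes MRPS15, MRPS7 and MRPS12 led, at 1763, 1716 and 1010. Between the groups these 6 genes had limma adjusted p from 0.465 to 0.997. MRPS12, which binds at the decoding center, had 968 ± 87.7 normalized counts in DMSO and 966 ± 27.6 with YK-4-279 (SD, n = 3 each).

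At the other end, low values went with shared exons. In 8 genes over 50% of the exon bases were also annotated, in GENCODE 44, to another gene on the same strand, mostly an unnamed or readthrough gene. Of these, 6 had a mean under 100 normalized counts. The 68 genes with at most 50% shared on either strand had means from 214.9 to 2521.6. MRPL53 shares 99.2% of its exon bases with CCDC142 and was listed at 0 in all 6 libraries. MRPS24 shares 90.9% with URGCP-MRPS24 and had 5.0 to 16.7 normalized counts, and MRPL2 shares 52.1% with an unnamed gene and had 4.2 to 18.9. These 3 genes did not reach the mean of 10 required for testing. MRPL38 (24.1 per kilobase in DMSO), MRPS28 (12.4) and MRPS18C (45.3) passed it at the foot of the order. MRPL38 shares 94.3% and MRPS28 56.2% of their exon bases on the same strand, and MRPS18C shares 83.6% with ABRAXAS1 on the opposite strand. MRPS5 shares 97.1% yet had a mean of 1213.8. The annotation and strand setting of the counting were not given in the sources used here, so reads of these genes and of their partners cannot be told apart. MRPL42 (67.9 per kilobase in DMSO) had a mean count of 997.3 over a canonical transcript of 15557 bases.

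No mitoribosomal gene passed the test for a change with YK-4-279. After limma's moderated test on log2(normalized count + 1) with Benjamini-Hochberg adjustment over all 13930 tested genes, 0 of 75 had an adjusted p under 0.05, against 3.41% of all tested genes. Without adjustment, 9 of 75 (12%) had a p under 0.05 in limma, 1 higher and 8 lower, against 18.7% of all tested genes. That count was not stable, ranging from 2 (without YK-4-279 replicate 1 or in eBayes without trend) to 15 (without DMSO replicate 1), and it was 3 without YK-4-279 replicate 3 and 3 under quantile normalization. edgeR and DESeq2 on the recovered reads also called 0, with 6 and 4 genes at an unadjusted p under 0.05. The fit bounded the changes closely. The 95% confidence interval of the log2 fold change (YK-4-279 over DMSO) had a median reach of 0.182 to either side and lay within ±0.5 for 69 of the 75 genes and within ±1 for 74. The exception was MRPS28, at 6.0 to 18.0 normalized counts. In bulk RNA, fewer cells of a kind and less RNA per cell cannot be told apart, and levels are relative to all genes in the library.

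**Figure D1:**
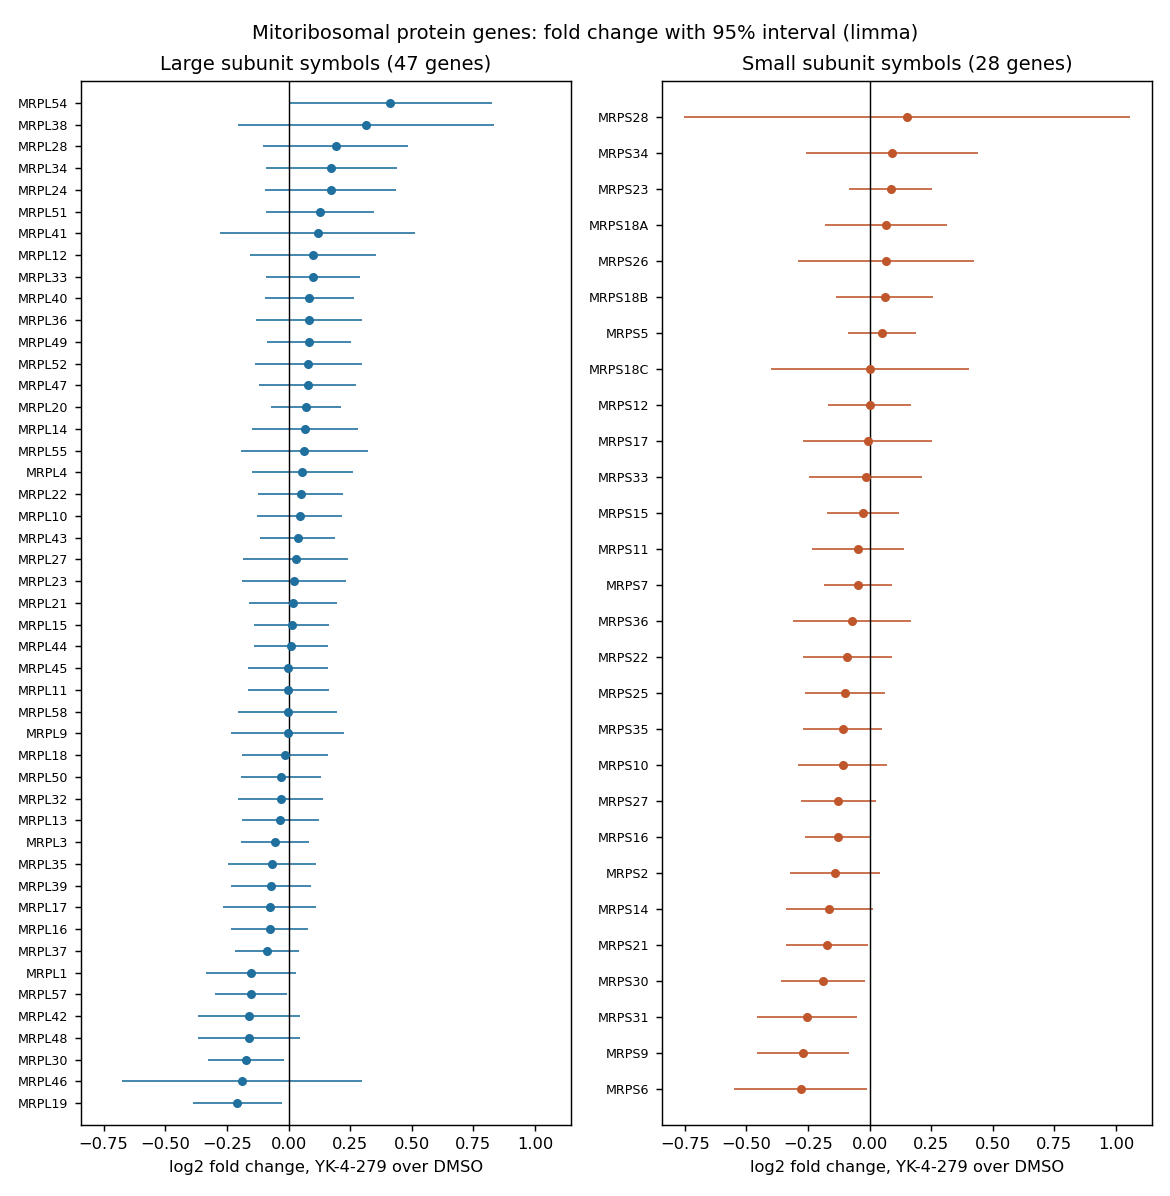
Log2 fold change of each tested mitoribosomal gene, YK-4-279 over DMSO, with its 95% confidence interval from limma (n = 3 libraries per group), for 47 genes with large and 28 with small subunit symbols. The interval reaches 0 or crosses it in 66 genes, lies below 0 in 8 and above 0 in 1 (MRPL54), and no gene passed the adjusted threshold.

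The summed reads of all 78 genes did not separate the groups. They came to 48365, 62886 and 74560 reads in DMSO and 69237, 57248 and 59983 with YK-4-279. Per 1000000 reads on named genes this was 2892, 3028 and 3021 against 2980, 3053 and 3018, and the groups overlapped. Each YK-4-279 library lay below each DMSO library for 9 of 75 genes (12%), against 15.1% of all tested genes. It lay above each DMSO library for 0 of 75, against 10.9% of all tested genes. The median log2 fold change over the 75 genes was -0.003 (40 lower), and that over all tested genes -0.007. The former was 0.015 under TMM scaling (33 lower) and -0.031 without DMSO replicate 1 (49 lower), and it ranged between these values over the alternatives run.

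The large and small subunit genes differed slightly in their medians. The median log2 fold change was 0.019 over the 47 tested large subunit genes (26 higher, 21 lower) and -0.059 over the 28 small subunit genes (9 higher, 19 lower). Among all tested genes 52.0% were lower. The medians were 0.037 and -0.040 under TMM scaling, and 0.032 and -0.068 under quantile normalization. Without DMSO replicate 1 both medians were below 0, at -0.012 and -0.096. Symbols do not always follow structure, and with MRPS30 and MRPS18A counted with the large subunit and MRPS36 left out the medians were 0.019 and -0.047. Members of a ribosome are not replicates of a condition, so this difference was not tested.

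By library, the reads on large over those on small subunit genes had a ratio of 1.58, 1.65 and 1.63 in DMSO, and of 1.70, 1.70 and 1.69 with YK-4-279. All 3 treated libraries were above all 3 controls. The mean log2 level of the large minus that of the small subunit genes was 0.128, 0.166 and 0.137 in DMSO and 0.274, 0.190 and 0.212 with YK-4-279, again with no overlap. The canonical transcripts of the large subunit genes had a median GC content of 50.4% and those of the small subunit genes 46.5%. After each library was freed of its smooth trend with transcript GC content and length, the same quantity was 0.181, 0.152 and 0.129 in DMSO and 0.261, 0.179 and 0.201 with YK-4-279. The groups then overlapped, through DMSO replicate 1 and YK-4-279 replicate 2. The medians of the fold changes after this removal were 0.018 for the large and -0.043 for the small subunit.

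**Figure D2:**
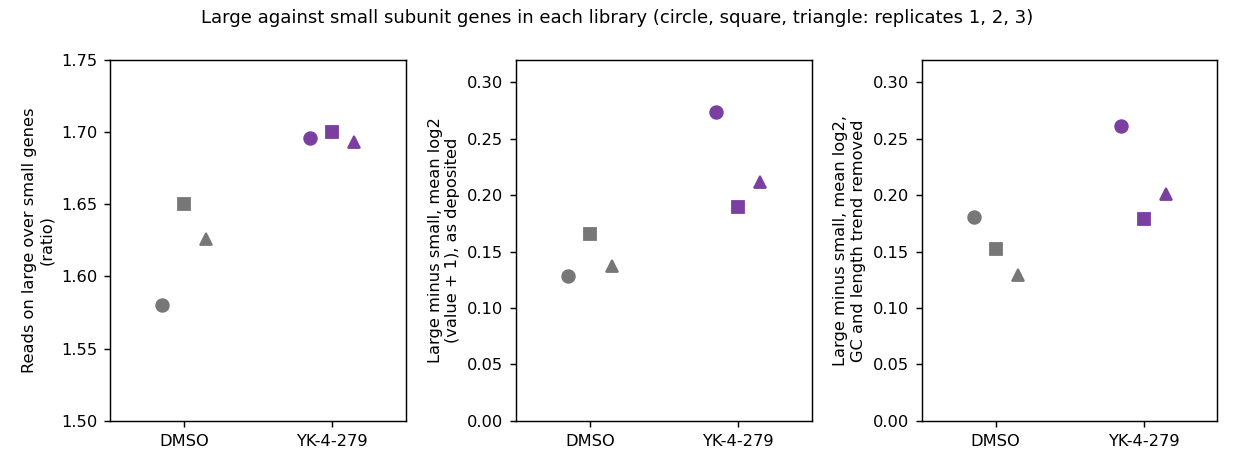
Large against small subunit genes in each library: the ratio of summed reads (left, on an axis that does not start at 0), the difference of mean log2(normalized count + 1) (middle) and that difference after removal of the GC and length trend (right). The 3 YK-4-279 libraries lie above the 3 DMSO libraries in the left and middle panels, and the groups overlap in the right panel.

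Across the 75 genes the log2 fold change was higher at higher GC content of the transcript, with a Spearman coefficient of 0.481 (0.545 over the 47 large and 0.256 over the 28 small subunit genes). Over 13705 tested genes with a known GC content it was 0.291. These fold changes include DMSO replicate 1. By library, the coefficient of GC content with the log2 deviation of the 75 genes was -0.608, 0.423 and 0.287 in DMSO. With YK-4-279 it was 0.573, 0.118 and 0.173. The coefficient for fold changes without DMSO replicate 1 was not computed. The genes share the 6 libraries, so these coefficients are descriptions. The part of GC content in the fold changes was not tested beyond the removal of the trend.

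**Figure D3:**
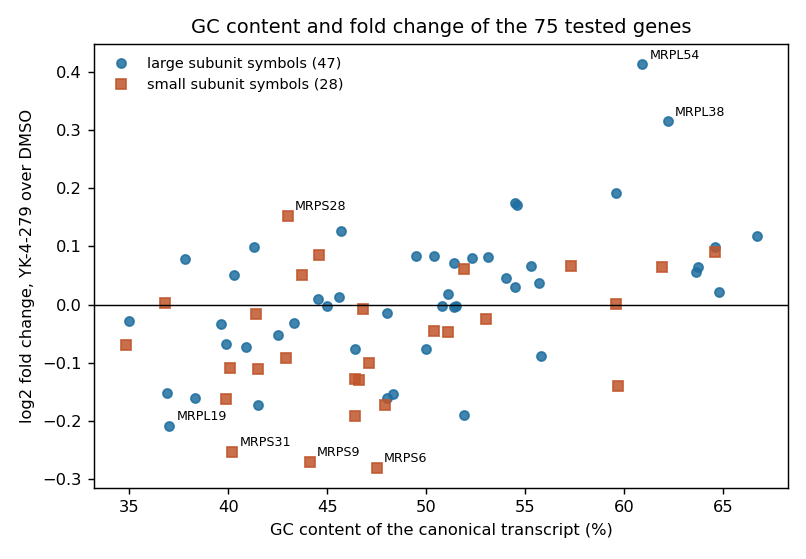
GC content of the canonical transcript (%) against log2 fold change (YK-4-279 over DMSO) for the 75 tested mitoribosomal genes, with large subunit symbols as circles and small subunit symbols as squares. MRPL54 and MRPL38 stand at the top, both with a GC content over 60%, and MRPS6, MRPS9 and MRPS31 at the bottom, all below 48%. The fold changes include DMSO replicate 1, whose levels were lower for GC-rich transcripts.

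Small subunit genes supplied the lowest p-values. MRPS9, a protein of the head of the small subunit with a bacterial homolog, had 426.2, 386.7 and 394.1 normalized counts in DMSO and 321.3, 341.2 and 337.2 with YK-4-279. The groups did not overlap. The log2 fold change was -0.27 (SE 0.087, limma adjusted p = 0.111), the smallest adjusted p of the 75. An antisense gene covers 24.0% of its exon bases. MRPS31, a head protein found only in mitochondria, had 576.2, 490.6 and 464.2 in DMSO and 438.7, 405.3 and 435.2 with YK-4-279, also without overlap. Its log2 fold change was -0.25 (SE 0.095, limma adjusted p = 0.169), and -0.16 without DMSO replicate 1.

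MRPS6 had the lowest fold change of all 75 genes but overlapping groups. Its libraries read 264.8, 199.8 and 243.8 in DMSO and 174.8, 210.8 and 195.1 with YK-4-279, for a log2 fold change of -0.28 (SE 0.126, limma adjusted p = 0.255). MRPS6 shares 33.1% of its exon bases with SLC5A3 and an unnamed gene on the same strand. MRPS21, which has a bacterial homolog, had groups that did not overlap, with 829.7, 741.4 and 831.6 in DMSO and 686.4, 702.0 and 740.4 with YK-4-279. Its log2 fold change was -0.17 (limma adjusted p = 0.247). The 3 largest fold changes above 0 among small subunit genes with a mean of at least 100 were MRPS34 (0.09), MRPS23 (0.09) and MRPS18A (0.07), with limma adjusted p from 0.594 to 0.802. DMSO replicate 1 was the lowest library for MRPS34 (358.1) and MRPS18A (221.9), and when it was left out their values were -0.16 and -0.03. MRPS23 then had 0.06.

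By structure, the 7 tested proteins of the small subunit head with MRPS symbols had log2 fold changes below 0, from -0.27 to -0.016 with a median of -0.110, against 52.0% of all tested genes lower. Head proteins with other symbols were not counted. With no filter on low values 7 of 8 were below 0. The count was 6 of 7 under TMM scaling, in edgeR, after removal of the GC and length trend, and when DMSO replicate 1, DMSO replicate 2 or YK-4-279 replicate 1 was left out, and 5 of 7 with that trend and DMSO replicate 1 removed together. Over the alternatives the median ran from -0.162 to -0.051, and it was -0.059 without DMSO replicate 1. Their groups did not overlap for MRPS9, MRPS31 and MRPS14 (3 of 7, or 42.9%, against the 15.1% of all tested genes given above). MRPS14 had 535.9, 507.6 and 471.7 in DMSO and 446.4, 459.7 and 445.2 with YK-4-279. Small subunit proteins with a bacterial homolog were lower in 11 of 14 (median -0.078), and those found only in mitochondria in 6 of 10 (median -0.053). These counts were 13 of 14 (median -0.121) and 8 of 10 (median -0.045) without DMSO replicate 1. In the large subunit the counts were 12 of 28 (median 0.020) and 9 of 18 (median 0.004), and without that library 13 of 28 (median 0.007) and 11 of 18 (median -0.014). Over the alternatives the small subunit medians ran from -0.121 to -0.047 (bacterial homolog) and from -0.074 to -0.018 (mitochondria only, 5 to 8 of 10 lower). Those of the large subunit ran from 0.007 to 0.039 and from -0.014 to 0.039. The stalk proteins, which recruit translation factors, had a median of 0.045 over 3 genes, the central protuberance 0.013 over 8, and the exit tunnel and membrane contact 0.036 over 6. Over the alternatives the stalk lay between -0.012 and 0.086, the central protuberance between -0.035 and 0.085, and the exit tunnel between 0.012 and 0.081. The stalk turned below 0 without YK-4-279 replicate 2, and the central protuberance without DMSO replicate 1 (-0.035), after removal of the GC and length trend (-0.020) and with both removed (-0.027).

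**Figure D4:**
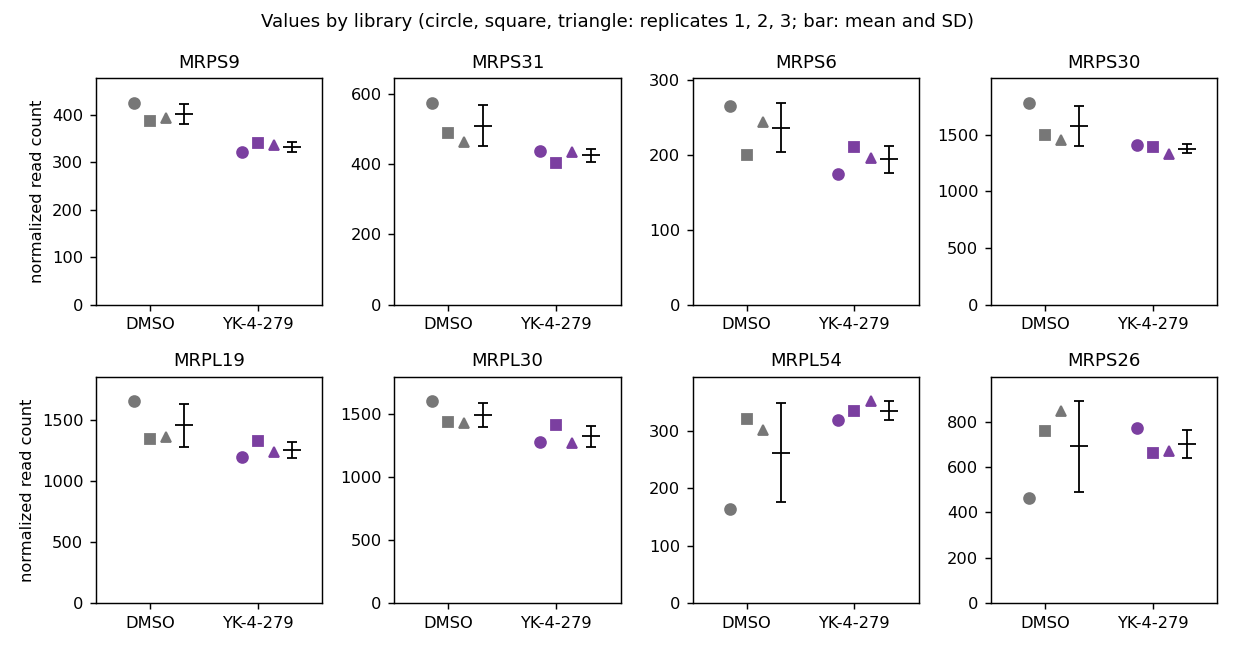
Normalized read counts of 8 mitoribosomal genes in each library (circle, square and triangle for replicates 1, 2 and 3), with the mean and SD of 3 libraries beside each group and axes from 0. For MRPS9, MRPS31, MRPS30, MRPL19 and MRPL30 all YK-4-279 libraries lie below all DMSO libraries, while DMSO replicate 1 alone is low for MRPL54 and MRPS26.

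Among large subunit genes, MRPL19, MRPL30 and MRPL57 had groups that did not overlap. MRPL19 had 1653.0, 1343.0 and 1361.8 normalized counts in DMSO and 1195.3, 1323.5 and 1238.6 with YK-4-279, with a log2 fold change of -0.21 (SE 0.084, limma adjusted p = 0.203), and -0.11 without DMSO replicate 1. MRPL30 had 1606.4, 1442.9 and 1431.9 in DMSO and 1280.2, 1419.2 and 1275.6 with YK-4-279, a log2 fold change of -0.17 (limma adjusted p = 0.222). DMSO replicate 1 was the highest library for both. MRPL42, another low-GC gene (38.3%), had a log2 fold change of -0.16 with overlapping groups (limma adjusted p = 0.396). It was -0.038 without DMSO replicate 1, its highest library at 1242.0 normalized counts, and -0.25 without DMSO replicate 2.

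MRPL54, MRPL28 and MRPL34 had the largest fold changes above 0 among large subunit genes with a mean of at least 100, and in each DMSO replicate 1 was the lowest library. MRPL54, a mitochondria-specific protein, had 163.9, 320.8 and 302.2 normalized counts in DMSO and 319.6, 334.7 and 352.2 with YK-4-279. DMSO replicate 1 alone was far below the others, and DMSO replicate 2 lay just above the lowest treated library. The log2 fold change was 0.41 (SE 0.191, limma adjusted p = 0.267), and 0.11 without DMSO replicate 1 (limma adjusted p = 0.510). MRPL28 had 780.5 in DMSO replicate 1, 1176.1 and 1235.7 in the other controls, and 1181.6, 1307.2 and 1092.6 with YK-4-279. Its log2 fold change was 0.19, and -0.018 without that library. MRPL34 gave 0.17 and -0.015, and MRPL51 gave 0.13 and -0.02, in the same order. All 4 had a GC content of 45.7% to 60.9%. MRPL38 had a log2 fold change of 0.32 (SE 0.241, limma adjusted p = 0.514) at 25.0 to 46.0 normalized counts, with overlapping groups. It was 0.45 without DMSO replicate 1 and 0.14 without DMSO replicate 2.

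Without DMSO replicate 1, 2 small subunit genes fell and 0 rose, against 8.46% of all tested genes lower and 4.62% higher in that fit. They are named after their values were seen. MRPS16, which has a bacterial homolog, had 1877.5, 2027.5 and 1872.8 in DMSO and 1729.2, 1814.7 and 1736.9 with YK-4-279. Its log2 fold change was -0.13 with all libraries (limma adjusted p = 0.287) and -0.15 without DMSO replicate 1 (limma adjusted p = 0.0342). MRPS26 had 465.3, 759.4 and 849.1 in DMSO and 774.6, 661.8 and 670.3 with YK-4-279. It moved from 0.07 (limma adjusted p = 0.871) to -0.20 (limma adjusted p = 0.0466) when the low control was left out.

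The MRPS18 paralogs occupy different sites of the ribosome. MRPS18A sits in the large subunit, and MRPS18B and MRPS18C in the small subunit. Their log2 fold changes were 0.07, 0.06 and 0.00 (limma adjusted p from 0.762 to 0.998), at means of 261.3, 892.8 and 70.5 normalized counts. All 3 were below 0 when DMSO replicate 1 was left out, at -0.03, -0.02 and -0.11. MRPS30, likewise a large subunit protein in spite of its symbol, had 1785.4, 1502.9 and 1451.1 in DMSO and 1407.0, 1395.3 and 1333.7 with YK-4-279. The groups did not overlap, and the log2 fold change was -0.19 (SE 0.079, limma adjusted p = 0.216). It was -0.10 without DMSO replicate 1, the highest library. MRPS36, now placed in the 2-oxoglutarate dehydrogenase complex rather than the ribosome, had a log2 fold change of -0.07 (limma adjusted p = 0.779).

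Starts of 17 mitoribosomal genes lay within 300 bases of the start of a named protein-coding gene on the opposite strand. An unnamed gene begins 162 bases from MRPL32 and is not counted here. MRPL46 and MRPS11 formed such a pair with each other, 63 bases apart. MRPL46 had 56.8 to 97.1 normalized counts in DMSO and 47.8 to 77.1 with YK-4-279, MRPS11 had 586.3 to 703.0 and 611.8 to 663.9, and the groups overlapped for both. The partner passed the test for 2 of the 17 genes (11.8%, against the 3.41% of all tested genes). The partners counted include MRPL46 and MRPS11 themselves. SKA3, a kinetochore protein that begins 106 bases from MRPL57, fell by 0.45 on the log2 scale (SE 0.084, limma adjusted p = 0.0125), from 1496 to 1095 normalized counts. MRPL57 itself had 1389.5, 1304.0 and 1290.0 in DMSO and 1177.3, 1262.7 and 1144.6 with YK-4-279, a log2 fold change of -0.15 (limma adjusted p = 0.250). TWNK, the helicase of mitochondrial DNA, rose by 0.33 (SE 0.072, limma adjusted p = 0.0247), from 1585 to 1991. The log2 fold change of MRPL43 was 0.04 (limma adjusted p = 0.818), at 1168 ± 75.9 and 1197 ± 39.1 normalized counts (SD, n = 3 each). Both calls depended on the fit. They were lost in eBayes without trend and without any 1 of the 3 YK-4-279 libraries, and that of TWNK also without DMSO replicate 3 and with the replicate block. The annotations of TWNK and MRPL43 overlap at their starts, and the differences between partners were not tested.

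With all 6 libraries as deposited, the lists of other genes of mitochondrial translation held no gene with a limma adjusted p under 0.05. Of 5 mitoribosomal proteins with other symbols 0 passed, with a median log2 fold change of -0.037. PTCD3, a small subunit protein that contacts mRNA, was lowest, with 3433.4, 2707.0 and 2828.0 in DMSO and 2521.8, 2487.3 and 2591.3 with YK-4-279 (log2 fold change -0.23, limma adjusted p = 0.137). DMSO replicate 1 was its highest library. Of 29 tested assembly factors 0 passed (median -0.054), and MTG1, a GTPase of large subunit assembly, had the largest change (-0.37, limma adjusted p = 0.399) at 28.3 to 49.2 normalized counts. Of 14 translation factors 0 passed (median -0.090), led by TACO1, which activates translation of a cytochrome oxidase subunit (0.23, limma adjusted p = 0.258). Of 19 mitochondrial tRNA synthetases 0 passed (median -0.009), led by WARS2 (-0.23, limma adjusted p = 0.224). MTG1, TACO1 and WARS2 had -0.26, 0.14 and -0.14 without DMSO replicate 1. The medians of the lists were no steadier. That of the translation factors was -0.028 without DMSO replicate 1. Over the alternatives the medians ran from -0.062 to 0.016 for proteins with other symbols, from -0.085 to -0.019 for assembly factors, from -0.131 to -0.009 for translation factors and from -0.015 to 0.047 for synthetases, which were above 0 under TMM scaling (0.010) and several other alternatives.

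Some of these genes passed in other fits, and those not named above are named after their values were seen. With the GC and length trend removed, 4 fell, against 6.84% of all tested genes lower in that fit. They were PTCD3 (-0.17, limma adjusted p = 0.0222), the assembly factor C1QBP (-0.15, limma adjusted p = 0.0383), the inner membrane insertase OXA1L (-0.15, limma adjusted p = 0.0380) and the elongation factor TUFM (-0.15, limma adjusted p = 0.0215). By list this was 1 of 5 proteins with other symbols, 1 of 29 assembly factors, 2 of 14 translation factors and 0 of 19 synthetases. Without DMSO replicate 1, PTCD3 (-0.13, limma adjusted p = 0.0465) and TUFM (-0.15, limma adjusted p = 0.0143) fell, against 8.46% of all tested genes lower in that fit. By list this was 1 of 5 and 1 of 14, with 0 of 29 assembly factors and 0 of 19 synthetases. Without DMSO replicate 2, PTCD3 fell by 0.30 (limma adjusted p = 0.0424), against 2.96% of all tested genes lower in that fit. It was the 1 call in its list of 5, with 0 in the lists of 29, 14 and 19. With the GC and length trend and DMSO replicate 1 removed together, the same 4 genes and the protease AFG3L2 (-0.15, limma adjusted p = 0.0365) fell, against 9.22% of all tested genes lower, and the initiation factor MTIF2 rose by 0.14 (limma adjusted p = 0.0309), against 6.92% higher. By list, 1 of 5, 2 of 29, 2 of 14 and 0 of 19 fell there, and 1 of the 14 translation factors rose. With all 6 libraries as deposited C1QBP, OXA1L and TUFM had -0.14, -0.15 and -0.11 (limma adjusted p from 0.208 to 0.371), AFG3L2 had -0.16 (limma adjusted p = 0.212) and MTIF2 0.03 (limma adjusted p = 0.857).

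Of 13 tested genes for mitochondrial transcription and its nuclear regulators 0 passed with all 6 libraries as deposited (median -0.022, and -0.095 to 0.026 over the alternatives). ESRRA, a nuclear receptor that drives oxidative genes, had the largest change (0.36, limma adjusted p = 0.181), and DMSO replicate 1 was again lowest, at 557.3 against 802.4 to 982.3. Its log2 fold change was 0.15 without that library (limma adjusted p = 0.108). ESRRA passed with the GC and length trend removed (0.31, limma adjusted p = 0.0186, against 4.91% of all tested genes higher) and without DMSO replicate 2 (0.51, limma adjusted p = 0.0234, against 1.9% higher). With the trend and DMSO replicate 1 removed together, ESRRA (0.20, limma adjusted p = 0.0102) and POLRMT, the mitochondrial RNA polymerase (0.19, limma adjusted p = 0.0018), rose and TFAM fell (-0.16, limma adjusted p = 0.0187). That fit called 2 of the 13 higher and 1 lower, against 6.92% and 9.22% of all tested genes. POLRMT had 0.18 as deposited (limma adjusted p = 0.249). In 4 of the 13 (30.8%, against 15.1% of all tested genes) each YK-4-279 library lay below each control, and these are named after their values were seen. They were TFAM, the packaging and transcription factor of mitochondrial DNA, the nuclear regulator NRF1, and GABPA and GABPB1, the ETS subunit and its partner. TFAM had 1535.8, 1443.9 and 1361.0 in DMSO and 1195.3, 1267.0 and 1235.6 with YK-4-279, a log2 fold change of -0.23 (SE 0.068, limma adjusted p = 0.0834). Without DMSO replicate 1 it was -0.19 (limma adjusted p = 0.0111), the 1 call of the 13 in a fit that called 8.46% of all tested genes lower. For NRF1, GABPA and GABPB1 the values on the log2 scale were -0.19, -0.19 and -0.28 (limma adjusted p from 0.103 to 0.214), and -0.17, -0.09 and -0.20 without DMSO replicate 1. Each YK-4-279 library lay above each control in 1 of the 13 (7.69%, against 10.9% of all tested genes). This was PPRC1, also named after its values were seen, with a log2 fold change of 0.06 (limma adjusted p = 0.605).

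The 13 mRNAs that the mitochondrial ribosome translates held 6.05% of the reads in DMSO replicate 1 and 4.74% to 5.03% in the other 5 libraries. Their log2 fold changes were below 0 in 12 of 13, with a median of -0.179, and 0 of 13 had an adjusted p under 0.05 in limma (6, or 46.2%, at an unadjusted p under 0.05, against 18.7% of all tested genes). The count of 6 fell to 2 (15.4%, against 25.5% of all tested genes) without DMSO replicate 1, to 0 without YK-4-279 replicate 1 and to 1 under quantile normalization, and reached 10 without DMSO replicate 3. Named after their values were seen, ND1 (-0.19 with all 6 libraries) had -0.13 without DMSO replicate 1 (limma adjusted p = 0.0476), and without DMSO replicate 2 ND4L (-0.30 with all 6) had -0.46 (limma adjusted p = 0.0385), each the 1 call of the 13 (7.69%) in fits that called 8.46% and 2.96% of all tested genes lower. The median was -0.068 without DMSO replicate 1 and 0 under quantile normalization. That method gives a rank the same value in every library, so genes of unchanged rank get 0 whatever their counts. Its values therefore cannot show whether these mRNAs changed. These 13 mRNAs share the 6 libraries and are not independent, so the counts are descriptions. The fits with the GC and length trend removed did not hold them. This list was added after the data had been examined.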

How the data were processed

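Messenger RNA of Rh30 cells was sequenced in 3 libraries with YK-4-279 and 3 with DMSO. BBDuk trimming, alignment to hg38 and gene counts by STAR were done by the authors (STAR 2.7.9a in the submitters' processing notes, which also name DESeq2 1.44.0). What they deposited per gene is a normalized signal (here, normalized count), the read count over one factor per library. From each library's smallest step 100% of the values gave whole reads, within 0.001 reads. One unnamed row, with at most 6 reads per library, was left out. No per-sample column was left unused. Depth was 16724650 to 24677433 reads per library, and MRPL or MRPS genes below 10 normalized counts lie near the counting limit.

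Genes with a mean of at least 10 were tested two-sided on log2(value + 1) with limma 3.58.1 in R 4.3.3 (lmFit, eBayes with trend), adjusted over all 13930. Positions, lengths and GC content came from GENCODE 44 on GRCh38 (98.4% of tested genes), promoters from RefSeq. The members and lists were chosen with earlier results of these data known, and lists are described by counts and medians only.

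Named were, in each subunit, the 3 genes highest and 2 lowest per length, the 3 largest changes each way at a mean of at least 100, up to 4 genes with groups that did not overlap and the smallest p, the MRPS18 paralogs, MRPS30 and MRPS36, genes below the filter, and in lists the largest change. The others are said to be named after their values were seen, or, like MRPS5, MRPS14, MRPL46, MRPS11, MRPL43 and their partners, illustrate a count. Alternatives were pseudocounts 0.5 and 10, no filter or a mean of 100, scaling by TMM or quantiles, a replicate block, eBayes with no trend, edgeR 4.0.16 and DESeq2 1.42.0 on recovered reads, removal of the GC and length trend, subunits by structure, and each library left out. Leaving out genes with shared exons, and removing the trend and DMSO replicate 1 together, were added after the data had been examined. Pairs of equal replicate number had correlated deviations of -0.098, -0.027 and -0.027, so the numbers were not used as a block. The fitting script was tested on simulated data.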

Additional observations from a re-analysis of the deposited data

How the results depend on the processing

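The number of mitoribosomal genes with an adjusted p under 0.05 was 0 under the alternatives run with all 6 libraries, the replicate block included (0, with 180 genes called over the whole table). It was 0 to 2 when single libraries were left out, and 3 (MRPL37 at -0.103, MRPL47 at 0.198 and MRPS16 at -0.134) without the GC and length trend and DMSO replicate 1 together. This was 4% of the 75, in a fit that called 16.1% of all tested genes, and with all 6 libraries as deposited the same genes had -0.088, 0.079 and -0.129. A median for the small subunit of -0.059 ranged from -0.096 to -0.025 with single libraries left out. The large minus small difference of medians was 0.078. It was 0.063 with no filter, 0.099 at a mean of at least 100, 0.099 under quantile normalization, 0.061 without the GC and length trend, 0.089 without that trend and DMSO replicate 1, 0.066 by structure and 0.096 without genes that share exons, and ranged from 0.055 to 0.104 with single libraries left out. The cause of these shifts was not tested.

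Several fold changes turned sign. With the GC and length trend and DMSO replicate 1 removed, MRPL51 read -0.007, MRPL34 -0.004, MRPS12 -0.046, MRPS18C -0.081, MRPS34 -0.112, MRPS18A -0.011, MRPS18B -0.009, MRPS26 -0.158 and MRPL43 -0.002. Without the trend alone, MRPS12 read -0.061, MRPS36 0.033 and MRPL43 -0.008. Under quantile normalization MRPS15 read 0.02, MRPS18C -0.10 and MRPS28 -0.119, and edgeR gave 0 for MRPS18C. With single libraries left out, the fold changes ranged from -0.02 to 0.216 for MRPL51, from -0.018 to 0.313 for MRPL28, from -0.015 to 0.272 for MRPL34, from -0.086 to 0.016 for MRPS15, from -0.073 to 0.056 for MRPS12, from -0.114 to 0.162 for MRPS18C, from -0.143 to 0.578 for MRPS28, from -0.164 to 0.237 for MRPS34, from -0.031 to 0.18 for MRPS18A, from -0.019 to 0.144 for MRPS18B, from -0.197 to 0.031 for MRPS36, from -0.197 to 0.236 for MRPS26, from -0.017 to 0.072 for MRPL43. Depth limited MRPS28, at 6.0 to 18.0 normalized counts, whose 95% interval ran from -0.75 to 1.06.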
